A study of Danio rerio with 12 samples.

Results

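Whole wild-type zebrafish eleutheroembryos exposed to 30 nM tributyltin chloride (TBT) were compared with those exposed to 3 nM TBT, all genes included. The comparison was defined by the sample titles, which put 3 libraries in each group, 6 of the 12 libraries in the series. Eleutheroembryos are hatched larvae that still live on yolk. All were wild type, were collected at 5 days post fertilization (dpf) and had been exposed through the water from 2 to 5 dpf. The water of every group held 0.2% dimethyl sulfoxide, the solvent of the TBT stocks. The other 6 libraries, 3 from larvae in solvent alone (the control) and 3 from larvae at 100 nM TBT, entered the estimate of the spread between libraries and are set beside the results. Each library was made from 1 pool of 10 larvae. The labels do not say whether pools with the same treatment had different parents or exposure vessels, so the p-values reflect how much these pools varied, which could be technical variation only.

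TBT is an organotin biocide, once used in antifouling paint, that is known to activate the retinoid X receptors (RXR) and the peroxisome proliferator-activated receptor gamma. RXRs act as pairs with other nuclear receptors, among them the liver X receptor (LXR), which turns on genes of cholesterol efflux and fatty acid synthesis, and the farnesoid X receptor (FXR), which responds to bile acids. Some of these pairs can be switched on through RXR alone, and LXR and PPAR pairs are known for this.

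The values were normalised counts, whole numbers deposited after scaling each library by a size factor, for 26816 genes, 24420 of them protein-coding. Their total per library lay between 28294209 and 31682021 at 3 nM and between 28277738 and 31308532 at 30 nM. Raw totals, worked out from the spacing of low values, were about 49700000, 24100000 and 32300000 at 3 nM and 28000000, 28800000 and 23800000 at 30 nM, so that 3 nM replicate 1 was the deepest library. Across genes, libraries correlated at r between 0.981 and 0.989 within 3 nM and between 0.980 and 0.983 within 30 nM.

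Of the 22404 genes tested, 30 differed between 30 and 3 nM at an adjusted p below 0.05, which is 0.134% of them. At 30 nM 20 genes were higher (0.0893%) and 10 lower (0.0446%). The test was limma's moderated linear model on log2(normalised count + 1) with Benjamini-Hochberg adjustment over all genes tested, and every adjusted p below comes from it. Fold changes are differences on this scale, which understates the change of low genes. Genes named below without a call were chosen after their values were seen, except the RXR genes, pparg, nr1h3, abca1a, cyp26a1, lepb and the defining markers of cell types, which were set together with the lists. The lists and these genes were themselves set with earlier results of these data known. The shares given for the lists thus describe them and are no test. All 30 were protein-coding. In each of them the 3 libraries of one group lay apart from the 3 of the other, a property shared by 1455 genes in the higher direction (6.49%) and 1453 in the lower (6.49%) among all genes tested. The rises spanned log2 fold changes of 0.66 to 4.15, with 15 of 20 past 2-fold, and the falls −0.85 to −4.10, with 6 of 10 past 2-fold. The median of all genes tested was 0.00. At an unadjusted p below 0.05 there were 928 genes (4.14%), 481 higher (2.15%) and 447 lower (2%). With 1 library fewer in either group the count fell, to 5, 4 or 5 without 3 nM replicate 1, 2 or 3 and to 10, 14 or 3 without 30 nM replicate 1, 2 or 3. It was 103 when only the 6 libraries compared were fitted, 129 with the replicate number added to the fit as a block, and 19 with every library scaled to the same total.

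**Figure D1:**
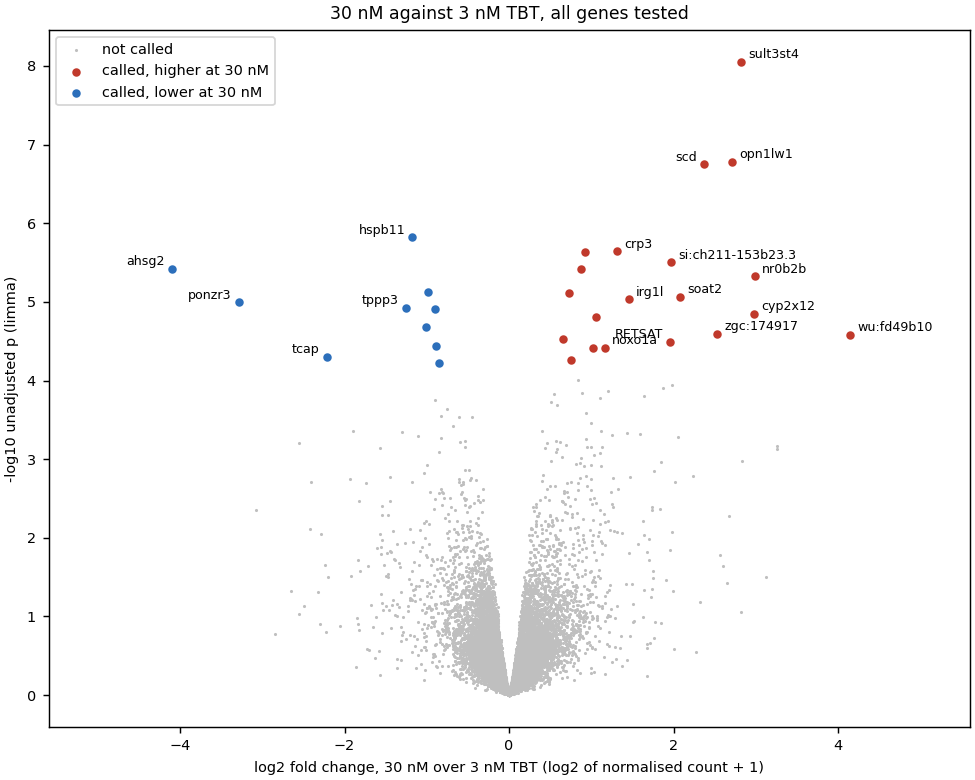
Each point is 1 of the 22404 genes, with the log2 fold change of 30 over 3 nM TBT on the x axis and −log10 of limma's unadjusted p on the y axis; red and blue points are the 20 genes called higher and the 10 called lower. sult3st4, opn1lw1 and scd stand highest, and wu:fd49b10 and ahsg2 lie farthest out.

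Of the 20 genes called higher, scd, fasn, acsl1b and acsbg2 act on fatty acids and soat2 and lcat on cholesterol. scd (ENSDARG00000033662) encodes stearoyl-CoA desaturase, which places a double bond in saturated fatty acids. Its normalised counts were 26, 29 and 30 at 3 nM and 151, 201 and 112 at 30 nM. Every 30 nM library thus stood far above every 3 nM library, and the 3 nM libraries in turn stood above the 18, 18 and 19 of the control. The mean went from 28.3 ± 2.08 to 155 ± 44.6 (SD, n = 3 each), a log2 fold change of 2.37 ± 0.21 (SE, adjusted p = 0.00134). At 100 nM scd read 290, 364 and 267, above all 3 libraries of 30 nM.

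fasn (ENSDARG00000087657), the gene of fatty acid synthase, read 1817, 2018 and 1810 at 3 nM and 3223, 3143 and 3021 at 30 nM. It rose 1.66-fold (log2 fold change 0.73 ± 0.09 SE, adjusted p = 0.0144), and its 3 nM values overlapped the control range of 1975 to 2277. Among the acyl-CoA synthetases, which activate fatty acids for use in lipid synthesis or oxidation, acsl1b and acsbg2 were called higher. Their relative acsl1a was not called (log2 fold change −0.14), and it was called lower at 100 nM against the control (−0.66). acsl1b went from 2659, 2643 and 2248 to 4018, 4114 and 4537 (log2 fold change 0.75 ± 0.12 SE, adjusted p = 0.0424). It alone was called of 34 tested genes of fatty acid oxidation and ketogenesis, whose median was 0.03. Without overlap 7 of the 34 (20.6%) were higher and 0 lower, against 6.49% of all genes each way. acsbg2, which was named after its values were seen, went from 2250, 2215 and 2052 to 3560, 3547 and 3166 (0.66 ± 0.10 SE, adjusted p = 0.0289). In fasn, acsl1b and acsbg2 the 3 nM libraries overlapped the control libraries and all 30 nM libraries lay above both. With every library scaled to the same total, the calls of fasn, acsl1b and acsbg2 ended (adjusted p = 0.204, 0.309 and 0.235).

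soat2 (ENSDARG00000059824), which encodes an enzyme that joins cholesterol to fatty acids for storage, read 195, 162 and 158 at 3 nM and 560, 734 and 920 at 30 nM. The groups were well apart, with a log2 fold change of 2.07 ± 0.27 (SE, adjusted p = 0.0149), and the 30 nM values overlapped the 627, 1480 and 1110 of 100 nM. Of 32 tested genes of lipid droplets, adipocytes and leptin soat2 alone was called, and the median was −0.04. Without overlap 4 of the 32 (12.5%) were higher and 4 (12.5%) lower, against 6.49% of all genes each way. lcat, whose enzyme esterifies cholesterol on plasma lipoproteins, went from 582, 623 and 549 to 1019, 1352 and 1198 (1.02 ± 0.16 SE, adjusted p = 0.0321). The call of lcat ended with equal totals (adjusted p = 0.209). eepd1 (ENSDARG00000071116), named after its values were seen, belongs to a gene known in human macrophages as an LXR-responsive gene that favours cholesterol efflux. It read 481, 362 and 424 at 3 nM and 794, 787 and 810 at 30 nM, where the 3 libraries were nearly equal (0.92 ± 0.10 SE, adjusted p = 0.00872). For eepd1, as for scd, the 4 groups stood in the order of their dose with no overlap, from 295 to 311 in the control up to 1105 to 1217 at 100 nM. The called gene si:cabz01068815.1, which lies in none of the lists, kept the same order, from 376 to 469 up to 1463 to 1533.

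In the list of LXR targets and fatty acid synthesis, 31 genes were tested and scd and fasn were called, both higher. The list's median log2 fold change was 0.29, and 15 of its 31 genes (48.4%) had all 30 nM libraries above all 3 nM libraries, against 6.49% of all genes tested, with 1 the other way. Of those not called, srebf1, the gene of the transcription factor that drives fatty acid synthesis, read 707, 810 and 803 at 3 nM and 1393, 1560 and 1486 at 30 nM (0.94 ± 0.20 SE, adjusted p = 0.209). The 100 nM libraries, which also enter its SE, were wider apart, at 1517, 2898 and 1672. abca1a, the gene of a cholesterol efflux transporter, read 5637, 4927 and 5430 against 7929, 7934 and 7772 (0.57 ± 0.12 SE, adjusted p = 0.215). Its call depended on the libraries in the fit, since with only the 6 libraries of the comparison its adjusted p was 0.0375. pltp (1.04, adjusted p = 0.254) and abcg8 (1.47, 0.384), which encode a phospholipid transfer protein and a sterol transporter subunit, were also without overlap. nr1h3, the LXR gene itself, had a log2 fold change of 0.41 ± 0.10 (SE, adjusted p = 0.374). Other genes of fatty acid synthesis were not called either. The log2 fold changes of acaca (0.18), acacb (0.06), elovl6 (−0.03) and the acly entries (0.09 and 0.05) were small. Those of fads2 (0.83) and elovl5 (0.37) were larger. scdb, a relative of scd, had a log2 fold change of 0.22. Of 29 genes of cholesterol biosynthesis, a pathway controlled by srebf2, 0 were called, against 0.134% of all genes tested. Their median was 0.16. At limma's unadjusted p below 0.05 were 2, srebf2 and ldlra, both as rises, against 2.15% of all genes. Neither encodes an enzyme of the pathway. Without overlap 5 (17.2%) were higher, against 6.49% of all genes, and 0 were lower. Of these 5 only hmgcs1 and ebp encode enzymes of the pathway, the others being srebf2, ldlra and insig1.

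The receptors were tested whatever their result, and none of the 6 RXR genes was called. The log2 fold changes of rxraa, rxrab, rxrba, rxrbb, rxrga and rxrgb were 0.06, −0.25, 0.05, 0.12, 0.08 and 0.00, each with an adjusted p of 1. The 95% intervals were −0.11 to 0.23 for rxraa, −0.13 to 0.22 for rxrba, −0.12 to 0.35 for rxrbb and −0.26 to 0.26 for rxrgb, and wider for rxrab (−0.83 to 0.32) and rxrga (−0.50 to 0.65). pparg read 274, 263 and 272 at 3 nM and 280, 319 and 353 at 30 nM (0.23, interval −0.08 to 0.54, adjusted p = 1). cyp26a1, whose enzyme degrades retinoic acid and which is a standard readout of retinoic acid receptors, read 118, 104 and 106 against 134, 128 and 117 (0.21, interval −0.08 to 0.50, adjusted p = 1). A rise as large as that of fasn lies outside all 8 of these intervals, while a fall of that size lies inside that of rxrab. Among the 28 tested genes of RXR and its partner receptors, 0 were called, against 0.134% of all genes tested. At limma's unadjusted p below 0.05 were 3 rises and 1 fall, against 2.15% and 2% of all genes. Without overlap 5 (17.9%) were higher and 3 (10.7%) lower, against 6.49% of all genes each way. The leptin gene lepb, which read 62, 87 and 77 at 100 nM, was at 0, 0 and 1 at 3 nM and at 0 in all 3 libraries of 30 nM.

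Among the genes of bile acids and FXR, nr0b2b was called. nr0b2b (ENSDARG00000102756) is a zebrafish counterpart of the mammalian gene of SHP, a corepressor that FXR induces and that holds down bile acid synthesis. It read 6, 7 and 6 at 3 nM and 49, 58 and 65 at 30 nM, a log2 fold change of 2.99 ± 0.36 (SE, adjusted p = 0.0106). The 3 nM values were close to the 3, 6 and 4 of the control, and the 30 nM values lay within the 41 to 112 of 100 nM. In the list, 9 of 22 genes (40.9%) had all 30 nM libraries above all 3 nM libraries, against 6.49% of all genes tested, with 0 the other way, and the median was 0.20. Its other members without overlap included abcb11b, the gene of a bile salt export pump (450, 440 and 258 against 960, 2211 and 1600; 2.02 ± 0.50 SE, adjusted p = 0.384), and slc51a, of a bile acid exporter subunit (632, 728 and 731 against 1043, 1793 and 1433; adjusted p = 0.438). The second SHP gene, nr0b2a, read 256, 244 and 302 against 540, 630 and 772 (1.26 ± 0.31 SE, adjusted p = 0.384).

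Of 45 tested genes of xenobiotic metabolism, sult3st4 and cyp2x12 were called, both higher, against 0.134% of all genes tested. The list's median was 0.14. Without overlap 12 of the 45 (26.7%) were higher, against 6.49% of all genes, with 5 the other way. sult3st4 (ENSDARG00000040781), which encodes a cytosolic sulfotransferase, had the lowest p of all genes. It read 90, 70 and 62 at 3 nM and 587, 486 and 495 at 30 nM, with a mean of 74 ± 14.4 against 523 ± 55.9 (SD, n = 3 each) and a log2 fold change of 2.82 ± 0.19 (SE, adjusted p = 0.000199). cyp2x12 (ENSDARG00000068290), of a cytochrome P450 of family 2, read 80, 89 and 89 against 454, 916 and 767 (2.98 ± 0.41 SE, adjusted p = 0.0178). In both genes the 30 nM libraries overlapped those of 100 nM, which read 380, 417 and 546 for sult3st4 and 298, 664 and 687 for cyp2x12. Sulfotransferases and family 2 cytochromes have close relatives in the genome whose reads could be shared, so that the share of each copy is uncertain. RETSAT (ENSDARG00000070140), the gene of retinol saturase, which reduces vitamin A, went from 117, 162 and 78 to 390, 636 and 356 (1.96 ± 0.29 SE, adjusted p = 0.0298). Its call ended with equal totals (adjusted p = 0.0618). Among genes of retinoid and vitamin D metabolism, a list that did not include RETSAT, 0 of 36 were called, against 0.134% of all genes tested. Without overlap 11 of the 36 (30.6%) were higher and 3 (8.33%) lower, against 6.49% of all genes each way. At limma's unadjusted p below 0.05 were 7 rises and 2 falls, against 2.15% and 2% of all genes. rbp2b, of a cellular retinol-binding protein, read 1509, 1788 and 1675 against 3586, 6861 and 5600 (1.64 ± 0.29 SE, adjusted p = 0.0948).

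Of 45 tested genes of the acute phase and inflammation, crp3 and irg1l were called, both higher, against 0.134% of all genes tested, and the median was 0.11. Without overlap 8 of the 45 (17.8%) were higher and 6 (13.3%) lower, against 6.49% of all genes each way. crp3 (ENSDARG00000042613) encodes a C-reactive protein, a pentraxin secreted by the liver. It read 1019, 951 and 1046 at 3 nM and 2249, 2619 and 2670 at 30 nM, and the 100 nM values of 2245, 1967 and 2972 covered the same range (log2 fold change 1.32 ± 0.15 SE, adjusted p = 0.00872). Its near-identical relatives crp2 (2.29-fold, adjusted p = 0.0904) and crp (2.15-fold, adjusted p = 0.0977), with which it may share reads, missed the threshold. irg1l (ENSDARG00000062788), related to the mammalian gene whose enzyme makes itaconate, read 415, 345 and 581 at 3 nM and 1276, 988 and 1367 at 30 nM (1.46 ± 0.19 SE, adjusted p = 0.0149). Here the 3 nM libraries lay below the 956, 1017 and 877 of the control, so part of the difference was a lower level at 3 nM. noxo1a, the gene of an organiser subunit of NADPH oxidase, had the same order, with 211, 157 and 154 at 3 nM, 247 to 292 in the control and 432, 339 and 395 at 30 nM (1.16 ± 0.18 SE, adjusted p = 0.0321).

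The second lowest p belonged to opn1lw1 (ENSDARG00000044862), a red cone opsin gene. Its normalised counts were 212, 239 and 150 at 3 nM and 1331, 1245 and 1301 at 30 nM, against 64, 111 and 74 in the control. The 3 libraries of 30 nM were close to each other and overlapped those of 100 nM (1363, 1957 and 1199), and the log2 fold change was 2.71 ± 0.24 (SE, adjusted p = 0.00134). The neighbouring red opsin gene opn1lw2 is a near-identical copy with far higher values, and opn1lw1 may share reads with it. opn1lw2 read 20917, 22324 and 17835 at 3 nM and 19457, 28390 and 25881 at 30 nM, so that its groups overlapped (0.26, adjusted p = 1). Of 67 tested photoreceptor genes opn1lw1 alone was called, against 0.134% of all genes tested, and the median was −0.08. Without overlap 6 of the 67 (8.96%) were higher and 7 (10.4%) lower, against 6.49% of all genes each way. The rod opsin gene rho, a defining marker of photoreceptors, overlapped between the groups (0.32, adjusted p = 1). cabp5a, the gene of a calcium-binding protein known from retinal bipolar cells in mammals, was lower, from 277, 298 and 327 to 151, 178 and 155 (−0.89 ± 0.12 SE, adjusted p = 0.0163, or 0.134 with equal totals).

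The other 5 genes called higher lie in none of the lists. wu:fd49b10 (ENSDARG00000092091), for which the files give no function, had the largest fold change of the 30, from 81, 42 and 82 at 3 nM to 763, 1749 and 1215 at 30 nM (4.15 ± 0.61 SE, adjusted p = 0.0268). zgc:174917 read 74, 35 and 84 against 412, 272 and 389 (2.53 ± 0.37 SE, adjusted p = 0.0268). Its control libraries, at 76, 160 and 193, had a mean of 143, above the 64.3 of 3 nM, and the libraries of these groups overlapped. si:ch211-153b23.3 read 123, 122 and 194 at 3 nM and 573, 412 and 745 at 30 nM (1.96 ± 0.23 SE, adjusted p = 0.00938). Its 30 nM libraries overlapped the control range of 444 to 592, below which all 3 nM libraries lay, and those of 100 nM, at 1498 to 1815, lay above all others. epd, the gene of ependymin, a secreted glycoprotein of the brain fluid, and si:cabz01068815.1 were named after their values were seen. epd went from 5029, 5049 and 4458 to 10482, 10038 and 9725 (1.06 ± 0.15 SE, adjusted p = 0.0182), and si:cabz01068815.1 from 684, 689 and 739 to 1151, 1401 and 1337 (0.88 ± 0.10 SE, adjusted p = 0.00938). Both calls ended with equal totals (adjusted p = 0.0592 each).

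**Figure D2:**
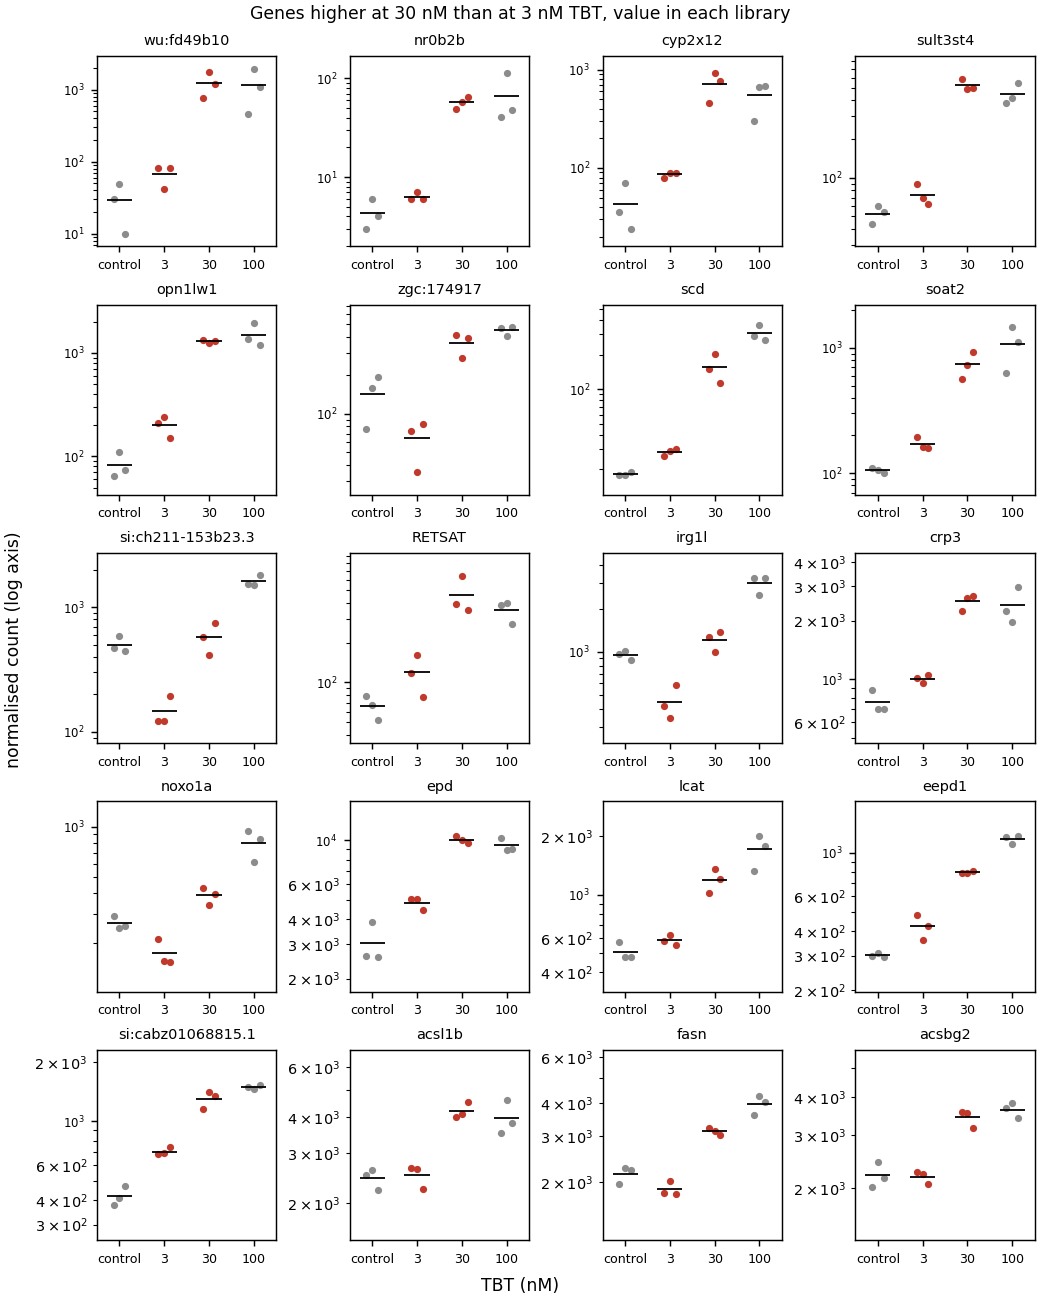
Normalised counts (log axis) of the 20 genes called higher, by TBT concentration, 1 point per library and a bar for the mean of 3; the 3 and 30 nM libraries compared are red, the control and 100 nM libraries grey. In every panel the 30 nM points lie above the 3 nM points, and in irg1l, noxo1a and si:ch211-153b23.3 the 3 nM points lie below the control.

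The falls included 2 sarcomere genes. tcap (ENSDARG00000007344) encodes telethonin, which caps titin at the Z-disc of striated muscle, and acta1a (ENSDARG00000036371) a skeletal muscle alpha-actin. tcap read 695, 1236 and 876 at 3 nM and 189, 341 and 114 at 30 nM, with no overlap although both groups were wide (−2.22 ± 0.35 SE, adjusted p = 0.0397). acta1a read 9766, 7705 and 9382 at 3 nM and 5240, 4247 and 5378 at 30 nM (−0.85 ± 0.14 SE, adjusted p = 0.0447). The control libraries of acta1a, at 5383 to 7146, lay between the groups, just above those of 30 nM. Its copy acta1b, which may share reads with it, read 64738, 54773 and 68393 against 47715, 45991 and 51757 (−0.36 ± 0.16 SE, adjusted p = 1). nmrk2, the gene of a nicotinamide riboside kinase that is enriched in muscle and serves NAD+ synthesis, went from 1571, 1520 and 1815 to 785, 917 and 773 (−0.99 ± 0.13 SE, adjusted p = 0.0144). klhl40b, a muscle gene that stabilises thin filament proteins, was not called (−0.83, adjusted p = 0.143).

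Most other muscle genes were not called. Of 53 tested sarcomere and muscle genes, a list that held acta1a but not tcap or nmrk2, 1 was called, and the median was −0.11. Without overlap 9 of the 53 (17%) were lower and 3 (5.66%) higher, against 6.49% of all genes tested each way. The list's summed level per library ran from 3368393 to 4321431 at 3 nM and from 3094910 to 3938328 at 30 nM. The defining muscle marker ckma read 247948, 168936 and 211408 against 223455, 159379 and 191868 (−0.12, adjusted p = 1). In these whole-larva pools, fewer cells of a type and less RNA per cell cannot be told apart. With equal totals the calls of tcap and acta1a ended (adjusted p = 0.0736 and 0.0855).

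hspb11 (ENSDARG00000002204; named hspb9l in the gene name table), of a small heat shock protein, had the lowest p among the falls. It read 936, 1087 and 1029 at 3 nM and 468, 493 and 391 at 30 nM (−1.18 ± 0.13 SE, adjusted p = 0.00843). The 3 nM libraries were above the control libraries, at 777 to 864, and those of 100 nM were lowest, at 138 to 183. Of the 34 tested heat shock genes it alone was called, and 7 (20.6%) had all 30 nM libraries below all 3 nM libraries against 6.49% of all genes. tppp3, of a protein that bundles microtubules, followed the same order, with 950, 987 and 927 at 3 nM, 349, 501 and 366 at 30 nM and 85 to 112 at 100 nM (−1.25 ± 0.17 SE, adjusted p = 0.0163).

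Liver genes went both ways. ahsg2 (ENSDARG00000069293), of a fetuin, a plasma protein secreted by the liver, had the largest fall, from 132, 164 and 221 at 3 nM to 4, 23 and 7 at 30 nM (−4.10 ± 0.49 SE, adjusted p = 0.00938). At 100 nM it read 4, 8 and 6. Of the 42 tested hepatocyte genes ahsg2 alone was called. The list's median was 0.16. All 30 nM libraries lay above all 3 nM libraries in 8 of the 42 (19%) and below them in 2 (4.76%), against 6.49% of all genes tested each way. fabp10a, the defining hepatocyte marker, read 12691, 13337 and 12205 at 3 nM and 19917, 26472 and 24007 at 30 nM (0.87 ± 0.20 SE, adjusted p = 0.267). The summed level of the hepatocyte list ran from 256253 to 282580 at 3 nM and from 266049 to 347543 at 30 nM. The sums overlapped between the groups, while fabp10a was higher in every 30 nM library, as were crp3, lcat and nr0b2b, which the liver is known to express, and its part in their rises was not tested. Of 53 complement and coagulation genes, most of them made in the liver, 0 were called, against 0.134% of all genes tested. At an unadjusted p below 0.05 were 13, all as rises, against 2.15% of all genes tested, and 16 (30.2%) were without overlap and higher, against 6.49%, with 0 the other way. Their median of 0.51 was the highest of the 37 lists, and masp1, of a protease of the lectin pathway, came closest to a call (160, 146 and 135 against 236, 261 and 295; adjusted p = 0.0709).

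The other 3 falls have varied roles. ponzr3, of a small cysteine-rich protein of the plac8 family, read 91, 154 and 145 at 3 nM and 10, 16 and 11 at 30 nM (−3.29 ± 0.43 SE, adjusted p = 0.0151). It has close relatives, and its values are uncertain to that extent. TMEM100, of a membrane protein known from the blood vessel wall in mice, read 153, 157 and 160 against 71, 82 and 80 (−1.01 ± 0.14 SE, adjusted p = 0.0233). adamts8a, of a secreted metalloprotease, read 155, 192 and 163 against 86, 92 and 95 (−0.89 ± 0.13 SE, adjusted p = 0.0321). The calls of TMEM100 and adamts8a ended with equal totals (adjusted p = 0.0972 and 0.285).

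**Figure D3:**
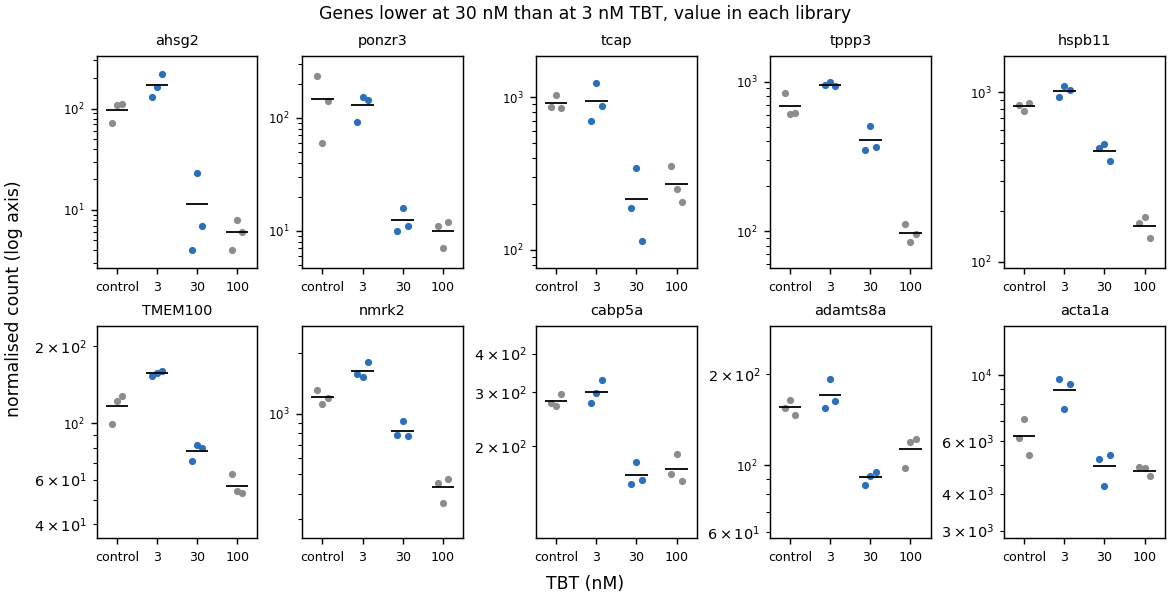
Normalised counts (log axis) of the 10 genes called lower, by TBT concentration, 1 point per library and a bar for the mean of 3; the 3 and 30 nM libraries compared are blue, the others grey. In hspb11, tppp3, nmrk2, TMEM100, ahsg2 and acta1a the 3 nM points lie above all control points, and in all 10 panels the 30 nM points lie below them.

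Set against the control, the genes called higher differed in where 3 nM stood. Of the 20, 9 had all 3 nM libraries above all control libraries (crp3, cyp2x12, eepd1, epd, opn1lw1, scd, si:cabz01068815.1, soat2 and sult3st4), 3 had them below (irg1l, noxo1a and si:ch211-153b23.3) and 8 overlapped. In 18 of the 20 all 30 nM libraries were above all control libraries, and in irg1l and si:ch211-153b23.3 they overlapped. Of the 10 genes called lower, 6 had 3 nM libraries above all control libraries and 0 below, and in all 10 the 30 nM libraries were below all control libraries. The genes were chosen by the 3 and 30 nM values that these positions use, so the counts describe the genes and are no test.

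The 100 nM and control libraries gave a comparison that used none of the 6 libraries behind these differences, apart from the shared estimate of the spread. All 20 genes that were higher at 30 than at 3 nM were also called higher at 100 nM than in the control, where 9.63% of all genes tested were. Of the 10 lower genes 9 were called lower there, against 7.9% of all genes. The exception was acta1a, with a log2 fold change of −0.37 (adjusted p = 0.0858). The median log2 fold change at 100 nM was 1.79 for the 20 and −1.64 for the 10, and −0.02 for all genes tested. For zgc:174917 the difference was smaller at 100 nM over control (1.75) than at 30 over 3 nM (2.53), and for tppp3 larger (−2.81 against −1.25). The difference between the contrasts was not tested.

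**Figure D4:**
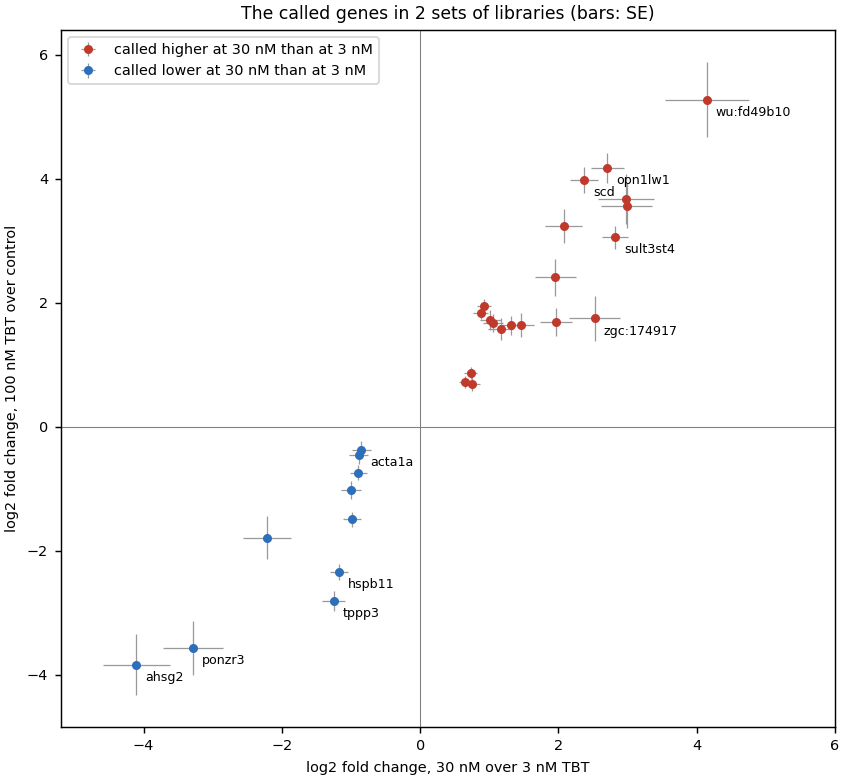
Log2 fold change of 30 over 3 nM TBT (x axis) and of 100 nM TBT over control (y axis) for the 30 called genes, with the SE of each fit as bars. All 20 red points (called higher) lie above 0 on both axes and all 10 blue points (called lower) below 0, with acta1a at −0.37 on the y axis.

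With 1 library fewer most of these calls could be lost, and the fold changes kept their direction. 3 of the 30 genes, sult3st4, opn1lw1 and scd, stayed below 0.05 when each of the 12 libraries was left out in turn, with adjusted p up to 0.00309 for sult3st4 and 0.0162 for the other two, each without 30 nM replicate 1. The other 27 lost the call without at least 1 library of the 2 groups compared. The highest adjusted p was 0.0624 for hspb11, 0.0975 for nr0b2b, 0.111 for fasn and soat2, 0.115 for cyp2x12, 0.158 for wu:fd49b10 and 0.298 for acta1a. acta1a kept its call when control replicate 2 was left out and lost it without any of the other 11. Without limma's variance trend, zgc:174917, wu:fd49b10, acsbg2, RETSAT, noxo1a, lcat, tcap, acsl1b and acta1a lost theirs, with adjusted p between 0.0563 and 0.0979. The log2 fold change of fasn ran from 0.71 to 0.79, that of nr0b2b from 2.89 to 3.09, that of wu:fd49b10 from 3.83 to 4.46 and that of ahsg2 from −4.74 to −3.61.

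Across the 37 gene lists, 11 held a called gene and 26 held 0. The medians ran from −0.17 to 0.51 on the log2 scale. The lowest was that of ribosome biogenesis, where 1 of 81 genes had a log2 fold change above 0. In 22 (27.2%) all 30 nM libraries lay below all 3 nM libraries and in 1 (1.23%) above, against 6.49% of all genes tested each way. Of the 81, 0 were called, against 0.134% of all genes. Cytosolic ribosomal proteins likewise had 1 of 81 genes above 0, with a median of −0.09. Of these, 1 (1.23%) was lower without overlap and 0 were higher. Several lists with large medians at 100 nM over control had small ones here, side by side and without a test of the difference. DNA replication and mitosis had a median of −0.09 (−0.96 at 100 nM over control), exocrine pancreas −0.09 (−1.44) and enterocytes −0.04 (−0.88). The list of the integrated stress and unfolded protein response had −0.04 (0.42). Each had 0 calls, against 0.134% of all genes tested. In the same order 9 (13%), 2 (6.25%), 8 (20.5%) and 7 (15.9%) genes were lower without overlap, against 6.49% of all genes. Higher without overlap were 2, 1, 0 and 1. The summed level of the stress list ran from 87178 to 90837 at 3 nM and from 76451 to 80551 at 30 nM, without overlap. Such a sum weighs genes with high values most, and 17 of the 44 genes tested had a log2 fold change above 0. The defining markers of enterocytes (fabp2, 0.06), skin (krt4, 0.01), ionocytes (foxi3a, 0.09), myelin (mbpa, 0.03), neurons (elavl3, 0.24), red blood cells (alas2, 0.07), neutrophils (mpx, 0.32) and cartilage (col2a1a, 0.19) each overlapped between the groups. For the exocrine pancreas only the list is given, without its defining marker.

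**Figure D5:**
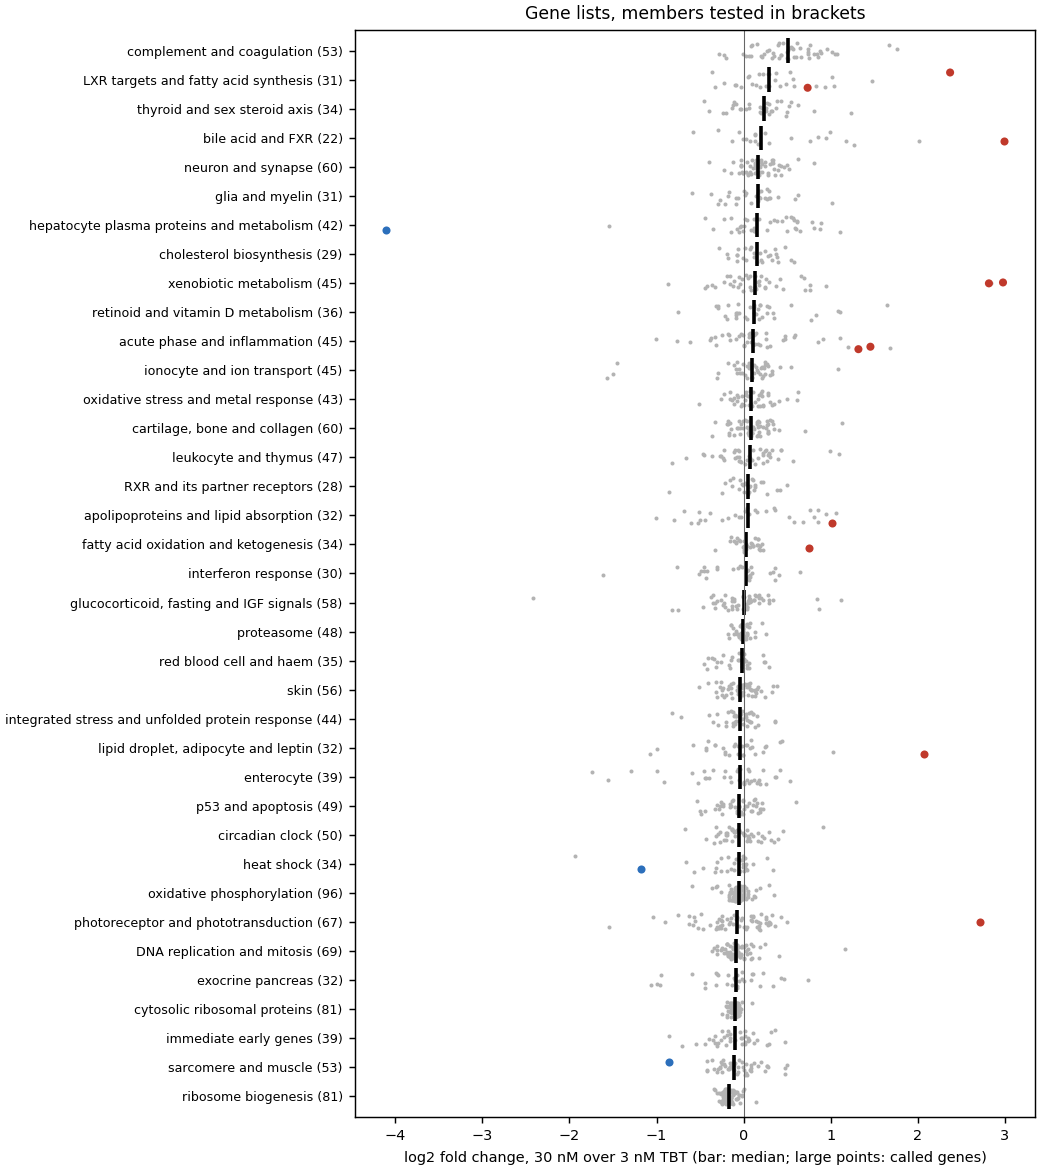
Log2 fold changes of 30 over 3 nM TBT for the tested members of the 37 gene lists (number tested in brackets), 1 point per gene, with a bar for each list's median; large red points are genes called higher and large blue points genes called lower. Complement and coagulation has the highest median (0.51) and ribosome biogenesis the lowest (−0.17), both without a called gene.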

How the data were processed

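RNA from pooled larvae was sequenced, per the labels' protocols, as stranded poly(A) libraries (15 PCR cycles, paired 76 nt reads). Build GRCz10 and the tools DESeq2 1.10.1, RSEM 1.2.28, STAR 2.5.1b and CASAVA are named, with no role or order, per the submitters' processing notes. The deposited values are treated as a score: the file headers call them normalised counts and they are whole numbers, so count models were not applied. The 12 libraries' own tables were used.

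Computed here, with limma 3.58.1 in R 4.3.3, were group means of log2(value + 1) over all 12 libraries, the contrast of 30 minus 3 nM TBT and eBayes with a variance trend. The filter kept genes that reached 10 in 3 or more libraries, and Benjamini-Hochberg adjusted p-values below 0.05 were called. The code was tested on simulated data. Size factors, estimated from steps between low values, lay between 0.812 and 1.63. Counting error is widest for low genes such as nr0b2b.

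The rule named the 12 largest called rises and up to 12 called falls with a mean of at least 50 and no overlap, called members of lists, and the RXR genes, pparg, nr1h3, scd, abca1a, lepb and cyp26a1. The defining cell type markers were set with the lists. The 37 lists and all choices were made with earlier results of these data known, so the 100 nM values are a description of known direction. Gene names are those of the files, and 24005 of 26816 IDs matched the gene name table. Replicate numbers were not used as a block. Alternatives changed the pseudocount, filter, scaling, variance trend, block, libraries in the fit and fold threshold, and left out each library in turn. No coordinates or sequences are given, because a GRCz10 genome was not used here.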

Additional observations from a re-analysis of the deposited data

How the results depend on the processing

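The count of 30 called genes was 30 with a pseudocount of 0.5 or 5, 32 without a filter on low values, 29 with a mean of at least 50, 30 with recomputed median ratios, 30 with a 1.5-fold minimum and 34 with the 9 exposed libraries. With equal library totals it was 19 (73.7% higher, against 66.7%), of which 18 were among the 30. Without the variance trend it was 21. Fitted to only the 6 libraries compared it was 103, which included all 30. Leaving out 1 library at a time gave 3 to 38. The replicate number as a block gave 129 genes, 88 higher and 41 lower, all 30 among them. Same-numbered libraries of 3 and 30 nM correlated in their deviations from the group means at 0.293, 0.350 and 0.0481 for replicates 1, 2 and 3. Replicate 1 of 3 nM with replicate 2 of 30 nM gave −0.317, and replicate 2 with replicate 1 −0.293. 3 nM replicate 3 correlated slightly better with 30 nM replicate 1 (0.0495), so by the rule used the numbers were not taken as pairs. Replicates 1 and 2 nevertheless shared deviations. In every group ckma, krt4 and foxi3a were highest in replicate 1 and lowest in replicate 2. The reverse held for rho, fabp2 and col2a1a, while mpx and mbpa kept no such order. What the numbers stand for is not in the labels. The 29 genes also called between 100 nM and the control numbered 28 to 30 under every alternative that kept both groups. With the 9 exposed libraries adamts8a, noxo1a, lcat, tcap and acsl1b lost their calls. Over the called genes, 471 of 659 values under alternatives kept direction and call, 188 lost the call and 0 reversed. Depth limits the genes with values in single or low double digits, such as nr0b2b, lepb and nos2a.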

Other observations

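Several genes that were not called had large differences without overlap between 30 and 3 nM. They were chosen after their values were seen and are given as values only. slc15a1a, of an intestinal peptide transporter, read 488, 583 and 360 at 3 nM and 131, 141 and 147 at 30 nM (log2 fold change −1.74, limma adjusted p = 0.389). enpp7.1, of a sphingomyelinase of the gut, read 573, 993 and 773 against 238, 309 and 401 (−1.30, adjusted p = 0.196), while the enterocyte marker fabp2 overlapped between the groups. rhcga, an ammonia transporter gene of ionocytes, read 3601, 3371 and 3510 against 1261, 1028 and 1261 (−1.57, adjusted p = 0.219), while the ionocyte marker foxi3a overlapped. The control libraries of rhcga, which also enter the estimate of its spread, were wider apart, at 5470, 1544 and 2554. upp2, of a uridine phosphorylase, read 132, 180 and 147 against 40, 31 and 17 (−2.41, adjusted p = 0.384). ponzr4, a relative of ponzr3 that may share its reads, read 57, 70 and 60 against 7, 13 and 10 (−2.56, adjusted p = 0.215).

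On the side of the rises, aanat2, of the enzyme that controls melatonin synthesis in the pineal gland, read 71, 72 and 64 at 3 nM and 141, 126 and 124 at 30 nM (0.91, adjusted p = 0.306), and 225 to 411 at 100 nM. igfbp1b, of a binding protein for insulin-like growth factors, read 647, 792 and 466 against 1098, 1525 and 1467 (1.12, adjusted p = 0.307). marco, of a macrophage scavenger receptor, read 139, 121 and 77 against 200, 249 and 208 (0.99, adjusted p = 0.219). nos2a, an inducible nitric oxide synthase gene, read 6, 5 and 3 at 3 nM and 53, 35 and 75 at 30 nM (3.26, adjusted p = 0.219), while the control libraries read 7, 76 and 40 and those of 100 nM 11, 19 and 6. Its high values thus did not follow the dose.

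Neuron and synapse genes lay mostly above 0, in 48 of 60 cases, with a median of 0.17. Of these genes 0 were called, against 0.134% of all genes tested, and 2 (3.33%) were without overlap and higher, against 6.49%. Between 100 nM and the control their median was −0.52. Cholesterol biosynthesis genes likewise had a median of 0.16 between 30 and 3 nM and −0.51 between 100 nM and the control. chac1, of a glutathione-degrading enzyme of the integrated stress response, read 15159, 12459 and 13436 at 3 nM, 10011, 7856 and 7205 at 30 nM and 8046 to 11605 in the control (−0.72, adjusted p = 0.48).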
